A study of Mus musculus with 10 samples.

Results

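Primary tumors of the mammary gland were compared between mice with an estrogen pellet in place and mice whose pellet had been out for 1 week. It used 4 of the 10 arrays of the series, chosen by the site and treatment in their titles: the estrogen-treated tumors of mice 11 and 14 and the estrogen-withdrawn tumors of mice 10 and 19. All mice were nu/nu females of 20 weeks, a strain that lacks a thymus and so most T cells but keeps other immune cells, and all carried human breast cancer cells and had received an estrogen pellet. The other 6 arrays were axillary lymph node metastases, 3 from estrogen-treated animals (6, 11 and 14) and 3 from estrogen-withdrawn ones (9, 10 and 19), so each of the 4 mice with a primary tumor array also gave a lymph node array. Tumor cells were cut out of frozen sections by laser capture, their RNA was amplified by PCR, and it was hybridized to an array of human probe sets, which can read host mouse RNA only by cross-hybridization. The cell line was not named in the sources used here, and the mouse was the replicate. The series concerns estrogen receptor positive breast cancer and how its lymph node metastases respond to estrogen, and the primary tumors give the response in the mammary gland.

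Estrogen receptor alpha, encoded by ESR1, is a transcription factor that binds DNA when estrogen occupies it. In breast cancer cells it works with the transcription factors FOXA1 and GATA3, raises genes of growth and secretion such as GREB1, TFF1, MYC and CCND1, and lowers genes that restrain growth or mark differentiation, such as CCNG2. Removal of the pellet takes that source of estrogen away, so the comparison asks which of these genes still follow the hormone in a grown tumor.

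The 4 arrays did not share 1 distribution. As deposited, the 99th percentile of log2 signal was 9.44 and 10.04 on the estrogen-treated primary arrays and 11.39 to 11.67 on the other 8 arrays, while all 10 medians lay between 2.70 and 2.83. Values were therefore quantile-normalized across the 10 arrays, which gives each array the same set of values, and every value below is on that log2 scale unless said otherwise. The mean of the 18 hybridization control probe sets was 9.62 and 10.55 on the estrogen-treated primary arrays and 12.47 and 12.33 on the withdrawn ones. Signal at the 3′ end minus the 5′ end, a measure of RNA length, was 4.27 and 4.49 for ACTB with estrogen and 6.17 and 5.91 after withdrawal, and 3.15 and 3.73 against 4.62 and 5.87 for GAPDH. These technical measures moved with the treatment in the primary tumors, their part in the results was not tested, and array quality and treatment cannot be told apart in these 4 arrays. The defining luminal epithelial markers (KRT8, KRT18, KRT19, EPCAM, CDH1, GATA3 and ESR1) were all detected above the filter, with a mean of 9.35 and 9.24 with estrogen and 10.14 and 10.13 after withdrawal.

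Of 17167 genes tested, 236 were called at an adjusted p below 0.05 (1.37%), 133 higher with estrogen (0.775%) and 103 lower (0.6%). The 133 rose by 1.09 to 7.23, with a median of 3.13, and 55 of them by more than 4. The 103 fell by 1.17 to 4.01, with a median difference of −2.07, and 1 of them by more than 4. The median difference of all genes tested was 0.06. Simple separation of the arrays was common: both estrogen arrays lay above both withdrawn arrays in 5351 genes (31.2%) and below them in 4589 (26.7%), together 9940 genes (57.9%). An unadjusted p below 0.05 was found in 3669 genes (21.4%), the share against which such counts of a list are to be read. Counts of calls in a list are to be read against the 0.775% called higher and 0.6% called lower. For a single gene the 2 against 2 arrays allow no exact two-sided permutation p below 0.333, so each call rests on a spread estimated over all 4 groups and all genes.

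**Figure D1:**
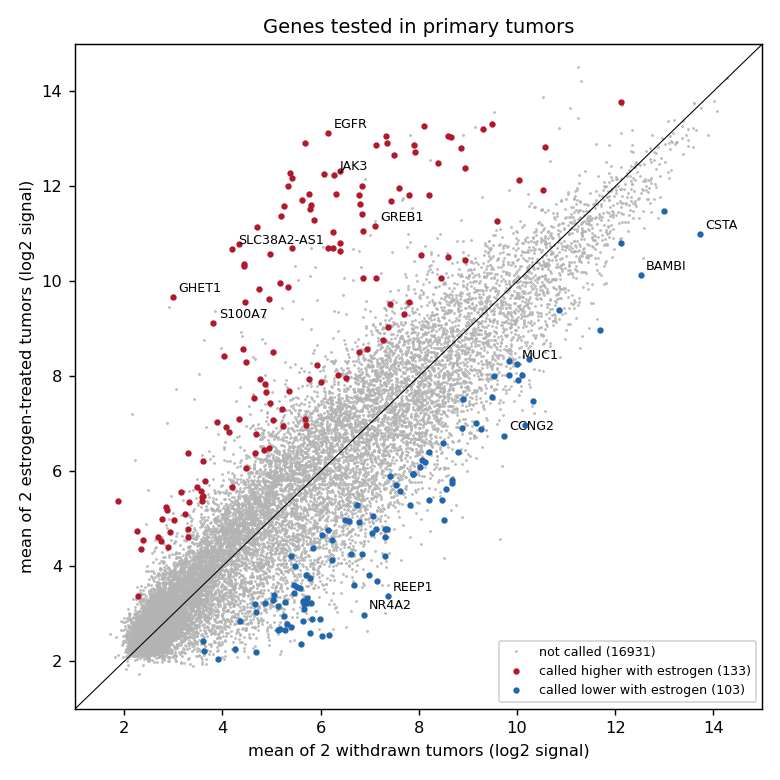
Each point is 1 of the 17167 genes tested, at the mean log2 signal of the 2 withdrawn primary tumors (x) and of the 2 estrogen-treated primary tumors (y), with the line of equal signal. The 133 genes called higher with estrogen (red) lie far above the line at up to 7.23 log2 units, and the 103 called lower (blue) lie closer to it, at 1.17 to 4.01 below.

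The split between directions depended on the scale. On the deposited values 1342 genes were called, of which 151 were higher (11.3%), against 56.4% higher among the 236. Cyclic loess gave 54 calls with 68.5% higher, 52 of them among the 236, and scaling each array by its median absolute deviation gave 3510 with 5.41% higher and moved the median of all genes to −0.26. Genes with a mean signal over 10 show the same shift, with a median difference of −1.89 as deposited and −0.18 after quantile normalization. A call under all 4 normalizations was made for 51 genes (0.297%), 34 higher and 17 lower. The count also moved with single arrays. It was 17 without the estrogen-treated primary array of mouse 11 and 53 without that of mouse 14, and 75 and 2 without the withdrawn primary arrays of mice 10 and 19. Without 1 lymph node array it was 30 (mouse 6), 1921 (mouse 11), 495 (mouse 14), 102 (mouse 9), 29 (mouse 10) and 261 (mouse 19). Those arrays enter the estimate of spread, the normalization, the choice of probe sets, the filter and the within-mouse correlation. Which of these moved the count was not tested. Calls kept without any 1 of the 10 arrays were made for 2 genes, SLC38A2-AS1 and SDCCAG8, the second of which is named here after its values were seen (10.27 and 9.52 against 4.87 and 5.79).

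The largest differences were higher with estrogen and belonged to single transcripts of mixed kinds. The 15 most positive calls rose by 5.94 to 7.23. EGFR, the receptor of epidermal growth factor, had 13.72 and 12.52 with estrogen and 6.08 and 6.23 after withdrawal, a difference of 6.95 ± 1.08 (SE, adjusted p = 0.0323). Both estrogen tumors were above every other array, since the 6 lymph node arrays had 3.82 to 7.10. FGFR1, a receptor of fibroblast growth factors, had 12.95 and 11.40 against 5.36 and 5.46 (6.76 ± 0.77, adjusted p = 0.00959). JAK3, a kinase that relays cytokine signals, had 12.66 and 11.81 against 6.09 and 6.48 (5.94 ± 0.65, adjusted p = 0.00761). The 2 groups were far apart in both, and the lymph node arrays stayed at 4.03 to 6.32 for FGFR1 and 5.45 to 7.70 for JAK3. GPX3, a secreted glutathione peroxidase, had 12.63 and 10.55 against 4.90 and 5.62, and CARD16, which blocks caspase-1, had 12.82 and 11.75 against 5.19 and 5.56.

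Several of the 15 are pseudogenes or RNAs that encode no protein. SLC38A2-AS1, the antisense transcript of a glutamine transporter gene, had 10.87 and 10.49 with estrogen and 4.11 and 4.30 after withdrawal (6.49 ± 0.43, adjusted p = 0.0019). OR7E2P, an olfactory receptor pseudogene, had 13.44 and 12.37 against 5.63 and 5.74 (7.23 ± 0.92, adjusted p = 0.0166). OR7E85BP, of the same pseudogene family, had 11.91 and 10.39 against 4.85 and 4.58. Such families hold near-identical copies, so the member that was read is uncertain. The probe sets of OR7E2P and OR7E85BP are named for the same transcript cluster, so they may read the same signal. GHET1, a long noncoding RNA, had 11.73 and 7.62 against 2.35 and 3.62, so its 2 estrogen tumors differed from each other by more than 4 log2 units. The others of the 15 were POLR2J4, METTL2B, VSX1, MYCNOS, DDX28 and CCNQ. In all 15 the 6 lymph node arrays lay below both estrogen-treated primary tumors. These 15 were picked for high values in those tumors, and the share over all genes was not computed.

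The other probe sets of these genes mostly did not share the difference. The probe set used was the brightest on average over all 10 arrays, the estrogen-treated primary arrays among them. High values on those arrays thus made a probe set more likely to be used. The contrast of used and other probe sets among genes called higher depends in part on that choice. Of the 13 with another probe set, 10 had none that differed by more than 1 in the same direction. Some other probe sets had low signals on every array, such as the 3 of CARD16 at 1.92 to 3.51. Whether probe sets that low could show a change was not tested. FGFR1 had 8 probe sets, and the other 7 differed by −0.44 to 0.71. EGFR had 8, all above 0, but of the other 7 a single one was near the probe set used (7.21), it is named for the same transcript cluster, and the median of the 7 was 0.20. Among all 106 genes called higher that had more than 1 probe set, 50 had every probe set above 0 (47.2%, against 40.6% with a shared sign among all 10341 such genes). In 83 of the 106 the median of the other probe sets was under 0.5 or below 0, and over the 106 its median was 0.20, against 3.92 for the probe set used. The genes called lower were alike: 36 of 76 had a shared sign (47.4%), in 56 the other probe sets had a median fall under 0.5 or a rise, and over the 76 their median was −0.15 against −2.06. When each gene was given the median of its probe sets, 67 genes were called, 54 of them among the 236.

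**Figure D2:**
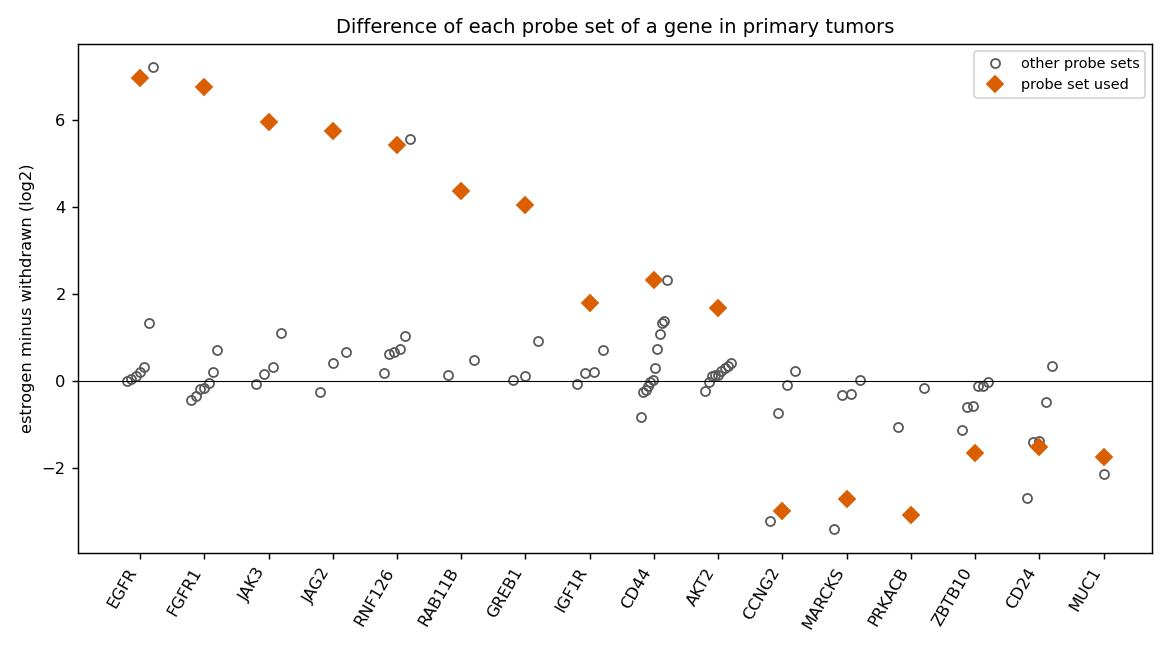
Estrogen minus withdrawn difference (log2, y) of every probe set of 16 called genes, with the probe set that stands for the gene as an orange diamond and the others as open circles. In EGFR and RNF126 1 other probe set lies beside the diamond, in FGFR1, JAK3, JAG2 and RAB11B none does, and in CD24 and MUC1 several or all lie below 0 with it.

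Genes called higher with at least 3 probe sets of 1 sign gave a more even picture in few cases. RNF126, a ubiquitin ligase, had 11.73 and 10.86 with estrogen and 5.89 and 5.84 after withdrawal, and all 7 of its probe sets were above 0, at 0.19 to 5.55. YBEY, a mitochondrial RNA processing enzyme, had 11.46 and 8.21 against 4.61 and 4.89, with its other 2 probe sets at 0.16 and 3.34. CTBP1-DT, a transcript divergent from the corepressor gene CTBP1, had 11.11 and 9.55 against 4.10 and 4.77, and 1 of its other 3 probe sets reached 4.71. In each of these a pair of probe sets held the large differences. In YBEY and CTBP1-DT the pair is named for the same transcript cluster, so it may read the same signal. SHROOM1, WHAMMP2, PLPPR2, SGSM1 and CABIN1 rose by 4.36 to 5.15, and their other probe sets differed by at most 1.13.

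Of 55 estrogen-induced genes tested, limma called 4 higher and 0 lower (0.775% and 0.6% of all genes). At an unadjusted p below 0.05 there were 19 and 1 (21.4% of all genes in either direction). Both estrogen arrays lay above both withdrawn arrays in 30 of the 55 and below them in 8 (31.2% and 26.7% of all genes). GREB1, a coactivator of the receptor and one of its best known targets, had 11.17 and 11.15 with estrogen and 6.65 and 7.56 after withdrawal (4.02 ± 0.74, adjusted p = 0.0427), which is 16.2-fold. Its estrogen tumors were nearly equal, its withdrawn ones were both far below, and its other 3 probe sets differed by 0.02 to 0.91. IGF1R, the receptor of insulin-like growth factors, had 5.56 and 5.20 against 3.96 and 3.19 (1.79 ± 0.32, adjusted p = 0.038). CCN5, a secreted matrix protein, had 6.58 and 6.17 against 4.62 and 4.71 (1.72 ± 0.31, adjusted p = 0.0427). ASB13, an adaptor of a ubiquitin ligase, had 8.58 and 8.60 against 7.15 and 6.74 (1.63 ± 0.30, adjusted p = 0.0427). All 4 kept a positive difference under the 3 other normalizations, but 0 of the 4 were called with cyclic loess. IGF1R and CCN5 were called on deposited values and after scaling, and GREB1 (2.41 and 1.96) and ASB13 (0.54 and 0.11) on neither.

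The median of the 55 was 0.57, against 0.06 for all genes, but it was −0.10 on deposited values and −0.40 after scaling, so the list has no direction that holds on every scale. All genes with a mean signal of 6 to 8, near that of this list, had a median of −0.76 as deposited. The 12 secreted products of the list had a median of 0.29 and its 43 other members 0.63. Of the best known members not called, TFF1, a secreted trefoil peptide, had 13.24 and 13.53 with estrogen and 13.09 and 13.05 after withdrawal, a difference of 0.31 that became −1.02 as deposited. MYC, a transcription factor of growth, had 6.09 and 5.90 against 5.03 and 4.06 (1.46 ± 0.56, adjusted p = 0.187). CCND1, the cyclin that starts the cell cycle, had 11.20 and 11.09 against 10.81 and 8.97 (1.26, and −0.54 as deposited). The groups did not overlap in any of the 3 (31.2% of all genes were apart with estrogen higher), and the withdrawn tumor of mouse 19 was the lower one each time.

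**Figure D3:**
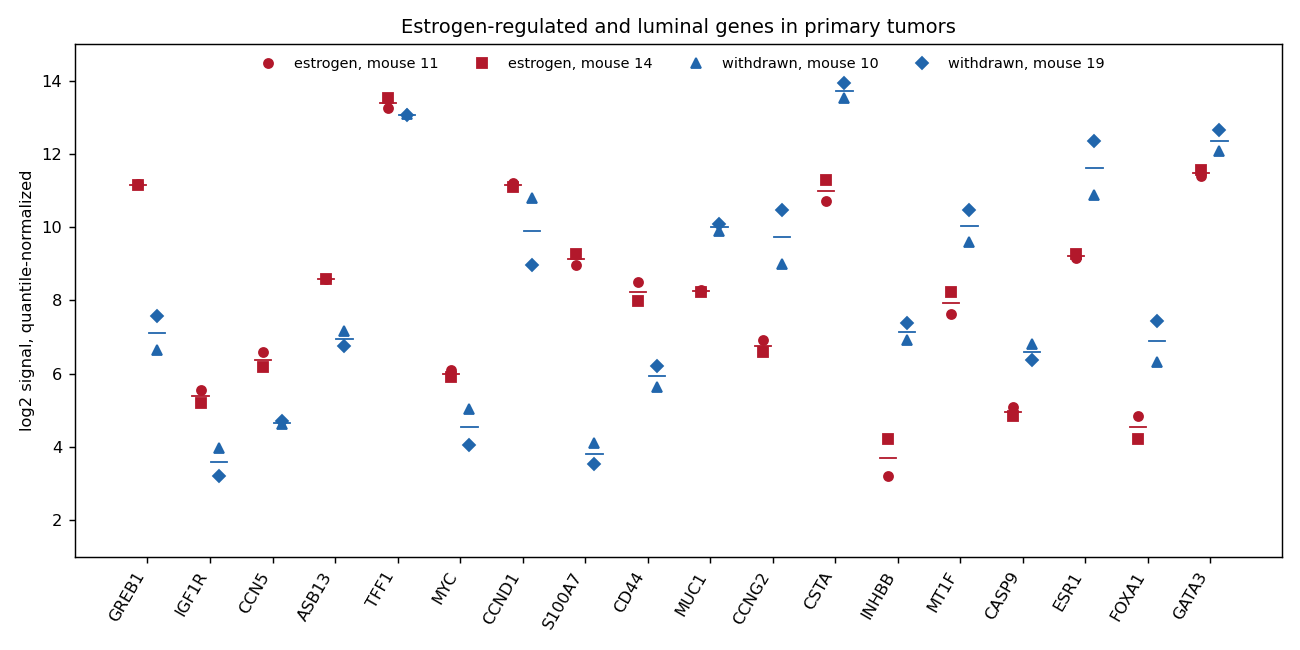
Log2 signal (y, quantile-normalized) of 18 estrogen-regulated and luminal genes in the 4 primary tumors, 1 symbol per mouse and a short line at each group mean. GREB1 stands at 11.15 to 11.17 with estrogen (red) and 6.65 to 7.56 after withdrawal (blue), while CSTA, INHBB, MT1F, CCNG2 and MUC1 are higher after withdrawal.

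Genes known to be repressed by estrogen were mostly lower with estrogen in value. Of 39 tested, 6 were called lower and 1 higher (0.6% and 0.775% of all genes). Both estrogen arrays lay below both withdrawn ones in 23 and above them in 6 (26.7% and 31.2% of all genes). The median was −0.63, and it was below 0 under all 4 normalizations (−0.58 to −1.97). All genes with a mean signal of 6 to 8, near that of this list, had a median of −0.76 as deposited. A median below 0 on that scale therefore adds little. Lists of other kinds, such as oxidative phosphorylation and mitosis, also had medians below 0 under all 4 normalizations. The 6 calls lower were also made on deposited values and after scaling, but 0 of the 6 with cyclic loess, and that of CD44 under none of the 3. CSTA, an inhibitor of cysteine proteases, had 10.70 and 11.28 with estrogen and 13.51 and 13.94 after withdrawal (−2.72 ± 0.39, adjusted p = 0.027). INHBB, the beta B subunit of inhibin and activin, had 3.20 and 4.20 against 6.91 and 7.38 (−3.44 ± 0.58, adjusted p = 0.035). CCNG2, a cyclin that holds back the cell cycle, had 6.91 and 6.58 against 9.00 and 10.46 (−2.96 ± 0.57, adjusted p = 0.0481). In all 3 the 4 tumors fell into 2 groups well apart, and CCNG2 fell on a second probe set as well (−3.21). MUC1, a mucin on the outer face of luminal cells, had 8.28 and 8.23 against 9.90 and 10.09 (−1.73 ± 0.32, adjusted p = 0.0427), and its other probe set differed by −2.14.

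CSTA and INHBB have 1 probe set each. MT1F and CASP9 were lower on 1 of their 3. MT1F, a metallothionein that binds zinc and copper, had 7.63 and 8.22 with estrogen and 9.60 and 10.46 after withdrawal (−2.11), while its other 2 probe sets differed by 0.33 and 1.22. Metallothionein genes are near-identical copies, so the member that was read is uncertain. CASP9, the initiator caspase of the mitochondrial pathway of cell death, had 5.08 and 4.83 against 6.80 and 6.37 (−1.62), with 0.02 and 0.17 on its other 2. Those 2 had low signals, 2.15 to 3.11 on the 10 arrays. The 1 gene called higher was CD44, a receptor of hyaluronan, with 8.50 and 7.98 against 5.62 and 6.22 (2.35 ± 0.44, adjusted p = 0.0427). Of its 13 probe sets 8 were above 0, and besides the one used 4 differed by more than 1. By role, 1 of 10 genes of cell cycle restraint, 1 of 6 of cell death and 4 of 23 of signalling were called lower.

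The receptor itself and its partners were not called. ESR1 had 9.16 and 9.25 with estrogen and 10.89 and 12.36 after withdrawal (−2.43 ± 1.12, adjusted p = 0.25), with groups apart but 4 of its 6 probe sets of the other sign. The 5 probe sets of ESR1 not used had low signals, 1.72 to 4.84 on the 10 arrays, and differed by −0.06 to 0.69. FOXA1, which opens chromatin for the receptor, had 4.85 and 4.22 against 6.32 and 7.44 (−2.32, adjusted p = 0.0954). GATA3, a transcription factor of the luminal lineage, had 11.39 and 11.56 against 12.08 and 12.64 (−0.89, adjusted p = 0.119). All 3 had lower values in both estrogen tumors and kept a negative difference under the 4 normalizations. Of 26 genes of the receptor complex tested, limma called 0, while 2 higher and 10 lower had an unadjusted p below 0.05 (21.4% of all genes in either direction). Of the 26, 4 had arrays apart with estrogen higher and 15 with estrogen lower (31.2% and 26.7% of all genes). The median was −0.64. The 4 luminal transcription factors among them had a median of −1.23, the 10 coactivators −0.62 and the 9 corepressors −0.33. PHB2, a repressor of receptor activity, had 10.88 and 10.67 against 9.56 and 9.69 (1.15, adjusted p = 0.0552), which turned to −0.61 as deposited and −1.27 after scaling.

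Receptors of growth factors held 3 of the 4 calls of their list, EGFR, FGFR1 and IGF1R, among 17 receptors tested. Of the list's 53 genes 4 were called higher and none lower (0.775% and 0.6% of all genes), and the median was −0.16. Arrays were apart with estrogen higher in 16 and with estrogen lower in 17, near the 31.2% and 26.7% of all genes. ERBB2, the receptor amplified in a class of breast cancers, had 5.96 and 6.62 with estrogen and 5.78 and 5.26 after withdrawal (0.76, adjusted p = 0.262, and −0.09 after scaling). AKT2, a kinase downstream of these receptors, had 11.66 and 10.87 against 9.84 and 9.34 and was called higher (1.68 ± 0.30, adjusted p = 0.0416), but it differed by −0.10 as deposited and −0.75 after scaling. The 10 ligands held no call (0 at an unadjusted p below 0.05) and had a median of −0.17, and the 10 feedback inhibitors held none (1 unadjusted) and had a median of −0.30. None of the 13 genes of insulin-like growth factor signalling other than IGF1R was called, and their median was 0.02.

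Of 53 genes of mitosis 1 was called, CENPN, a centromere protein, with 13.12 and 11.87 against 8.75 and 8.03 (4.08 ± 0.54, adjusted p = 0.0201), on 2 of its 6 probe sets. Those 2 are named for the same transcript cluster, so they may read the same signal. The median of mitosis genes was −0.25. MKI67, the marker of cycling cells, had 8.21 and 8.46 with estrogen and 8.55 and 6.75 after withdrawal, so its groups overlapped. Genes of DNA replication (36 tested, median 0.27) and genes of the G1 to S step (cyclins, their kinases and inhibitors, pocket proteins, and E2F factors and their partners, 29 tested, median 0.15) held 0 limma calls, with 5 and 11 genes at an unadjusted p below 0.05 (21.4% of all genes), and both medians were below 0 as deposited (−0.79 and −0.31). The nearest were MCM2 and CDT1, which load the replicative helicase, at 1.40 (adjusted p = 0.113) and 1.99 (adjusted p = 0.117), and the transcription factor E2F2 and the pocket protein RBL2 at 1.60 (adjusted p = 0.0631) and −2.78 (adjusted p = 0.065).

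Genes of several signalling pathways were called lower. BAMBI, a decoy receptor that blocks transforming growth factor beta, had 10.17 and 10.09 with estrogen and 12.21 and 12.83 after withdrawal (−2.38 ± 0.37, adjusted p = 0.0323). With INHBB it made 2 calls lower among 32 genes of that pathway (0.6% of all genes), whose median was −0.39. RNF43, which removes Wnt receptors from the cell surface, had 6.53 and 5.10 against 8.20 and 9.13 (−2.85 ± 0.47, adjusted p = 0.0338). In the same list of 34 Wnt and Notch genes the Notch ligand gene JAG2 (13.30 and 12.84 against 7.26 and 7.40) and RBPJ, the DNA-binding partner of Notch, rose by 5.73 and 2.26. RBPJ differed by −0.0078 after scaling, and 6 of its 11 probe sets were of the other sign. NR4A2, an orphan nuclear receptor induced early by many signals, had 3.16 and 2.80 against 6.41 and 7.34 (−3.88 ± 0.71, adjusted p = 0.0427), and its other probe set differed by −1.55. ATF3, a stress-induced transcription factor, fell by 1.64, and these were the 2 calls among 31 immediate early genes.

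MARCKS, a membrane protein that protein kinase C releases, had 8.47 and 9.48 with estrogen and 11.75 and 11.62 after withdrawal (−2.71 ± 0.45, adjusted p = 0.0338), and 1 of its other 4 probe sets differed by −3.41. PRKCI, an atypical protein kinase C, fell by 2.33. ATP2B1, a calcium pump of the plasma membrane, fell by 1.91 with all 3 of its probe sets below 0 (the others at −0.90 and −0.04). MARCKS, PRKCI and ATP2B1 made 3 calls lower and 0 higher among 23 genes of protein kinase C, its substrates and calcium (0.6% and 0.775% of all genes). PRKACB, a catalytic subunit of protein kinase A, had 5.61 and 5.18 against 7.80 and 9.13 (−3.08 ± 0.57, adjusted p = 0.0427), with its other 2 probe sets at −1.05 and −0.15. RPS6KA5, a kinase of histones and CREB, had 4.09 and 4.17 against 6.34 and 6.13 (−2.09), and all 3 of its probe sets were below 0 (the others at −0.75 and −0.21). The groups did not overlap in any of these, as was so in this direction for 26.7% of all genes.

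The 15 most negative calls fell by 2.96 to 4.01. REEP1, which shapes the endoplasmic reticulum, had 3.40 and 3.33 with estrogen and 7.79 and 6.95 after withdrawal (−4.01 ± 0.59, adjusted p = 0.0281). PLAAT3, a phospholipase, had 5.53 and 4.42 against 8.32 and 8.72 (−3.54), and RAB27B, a GTPase of secretory granules, had 7.08 and 6.87 against 9.83 and 10.51 (−3.16). RAB27B was lower on its other probe set too (−1.68), and that of PLAAT3 differed by −0.23 at a low signal, 1.96 to 2.50 on the 10 arrays. The others were ZMAT1, ZNF704, RHOU, FAM171B, AFF1, BACH1, USP53 and ZNF559, beside NR4A2, INHBB, PRKACB and CCNG2 above. BACH1, a repressor of heme and antioxidant genes, fell on 1 of its 4 probe sets and the other 3 differed by 0.10 to 0.54. Those 3 had low signals, 1.98 to 3.20 on the 10 arrays. ZBTB10, a repressor of SP transcription factor genes, fell by 1.64 with all 7 of its probe sets below 0, the other 6 at −1.12 to −0.03. TMTC4, NCALD, TTC39B, DENND11, HEATR5B and SEMA5A fell by 1.63 to 2.53, each with at least 3 probe sets below 0 and none above. Some of those falls were small: the other 3 of HEATR5B differed by −0.14 to −0.05 at signals of 1.75 to 3.30. The other 2 of TTC39B differed by −0.35 and −0.32.

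Epithelial and invasion genes were mixed. CD24, a surface glycoprotein of luminal cells, had 11.54 and 11.43 with estrogen and 13.03 and 12.97 after withdrawal (−1.51 ± 0.30, adjusted p = 0.0489), with 5 of 6 probe sets below 0, and it was the 1 call among 35 genes of epithelial adhesion (median −0.07). PLAU, the urokinase that activates plasminogen, had 5.59 and 5.75 against 4.03 and 2.93 and rose by 2.20, while its other probe set differed by −0.01. With CSTA it made the 2 calls among 29 proteases and inhibitors. CD44 was the 1 call among 20 mesenchymal genes. Of these 20, 10 had arrays apart with estrogen higher and 3 with estrogen lower (31.2% and 26.7% of all genes). Their median was 0.33, and it was above 0 under all 4 normalizations. S100A7, the calcium-binding protein psoriasin, had 8.97 and 9.28 against 4.10 and 3.53 (5.27 ± 0.88, adjusted p = 0.0348), the 1 call among 23 S100 and annexin genes. Integrins and laminins (24 tested, 3 at an unadjusted p below 0.05) held no call, with ITGAV at −2.39 (adjusted p = 0.0998) and LAMB2 at −1.61 (adjusted p = 0.115), and neither did chemokines (17 tested, 4 unadjusted), with CX3CL1 at 1.76 (adjusted p = 0.0577) and CXCL14 at 2.17 (adjusted p = 0.0598).

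Lists of translation, respiration and protein turnover had medians far below 0 as deposited and nearer to 0 after quantile normalization. The 49 genes of the cytosolic ribosome had 0 limma calls, 6 genes at an unadjusted p below 0.05 and a median of −0.20, which was −1.83 as deposited and 0.35 after cyclic loess. RPL9 and RPL30, of its large subunit, differed by −1.14 (adjusted p = 0.113) and −0.79 (adjusted p = 0.137). The 42 genes of oxidative phosphorylation had a median of −0.45 and of −1.93 as deposited. Their 1 call was ATP5MC1, a subunit of the ATP synthase ring, which was higher by 1.37 after quantile normalization and at −0.41 as deposited and −1.16 after scaling. The 31 proteasome genes had no call (5 unadjusted) and a median of −0.14 (−1.83 as deposited), with PSMB3 at 2.02 (adjusted p = 0.0783) and PSMC6 at −1.25 (adjusted p = 0.11). DHCR7, the last enzyme of cholesterol synthesis, was the 1 call among 23 lipid synthesis genes, at 1.50, and it too changed sign as deposited (−0.17) and after scaling (−0.78).

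Stress lists held few calls. EPAS1, a hypoxia-inducible factor, had 5.43 and 6.07 with estrogen and 9.39 and 7.97 after withdrawal and fell by 2.91 on 1 of its 3 probe sets, the 1 call among 33 genes of hypoxia and glycolysis. The 28 genes of the unfolded protein response had no call (10 unadjusted) and a median of −0.44, with the sensor kinase EIF2AK3 at −1.64 (adjusted p = 0.0886) and DDIT3 at −1.31 (adjusted p = 0.0928). The 23 p53 targets had no call (5 unadjusted) and a median of −0.06, with GDF15, a secreted stress cytokine, at −2.01 (adjusted p = 0.0593) and FBXW7 at −2.24 (adjusted p = 0.0917). GPX3 and MT1F were the calls among 31 antioxidant and metallothionein genes, and CARD16 and CASP9 those among 30 genes of BCL2 proteins and caspases, 1 in each direction in both lists. GABARAPL2, a protein of autophagosomes, fell by 1.29, alone among 21 genes of autophagy and lysosomes, and KDM6A, a histone demethylase, fell by 2.02, alone among 29 chromatin modifiers. CCNG2 was the 1 call among 21 targets of glucocorticoids and FOXO factors, RAB11B (4.35) and RAB27B those among 25 genes of vesicle transport. The 20 amino acid transport and serine synthesis genes had no call (5 unadjusted), with SHMT2 at 1.77 (adjusted p = 0.0722) and SLC38A9 at −1.74 (adjusted p = 0.0954).

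Interferon response genes had the highest list median, 0.93, with 0 of 32 called by limma and 3 higher at an unadjusted p below 0.05, where all genes had 21.4%. Both estrogen arrays lay above both withdrawn ones in 16 of the 32 and below them in 1 (31.2% and 26.7% of all genes). EIF2AK2, a kinase activated by double-stranded RNA, had 10.13 and 10.38 with estrogen and 8.45 and 8.31 after withdrawal (1.88 ± 0.65, adjusted p = 0.155), and BST2, which tethers viruses to the membrane, had 11.75 and 11.41 against 10.53 and 9.95 (1.35, adjusted p = 0.2). The list median stayed above 0 with cyclic loess (0.77) and as deposited (0.09) and was −0.44 after scaling. MHC class I genes (13 tested, none called, 1 at an unadjusted p below 0.05) had a median of 0.55 that was −0.75 as deposited and −1.27 after scaling, while TAP1, a peptide transporter, and B2M, the light chain, had −1.41 (adjusted p = 0.126) and −0.66 (adjusted p = 0.247).

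**Figure D4:**
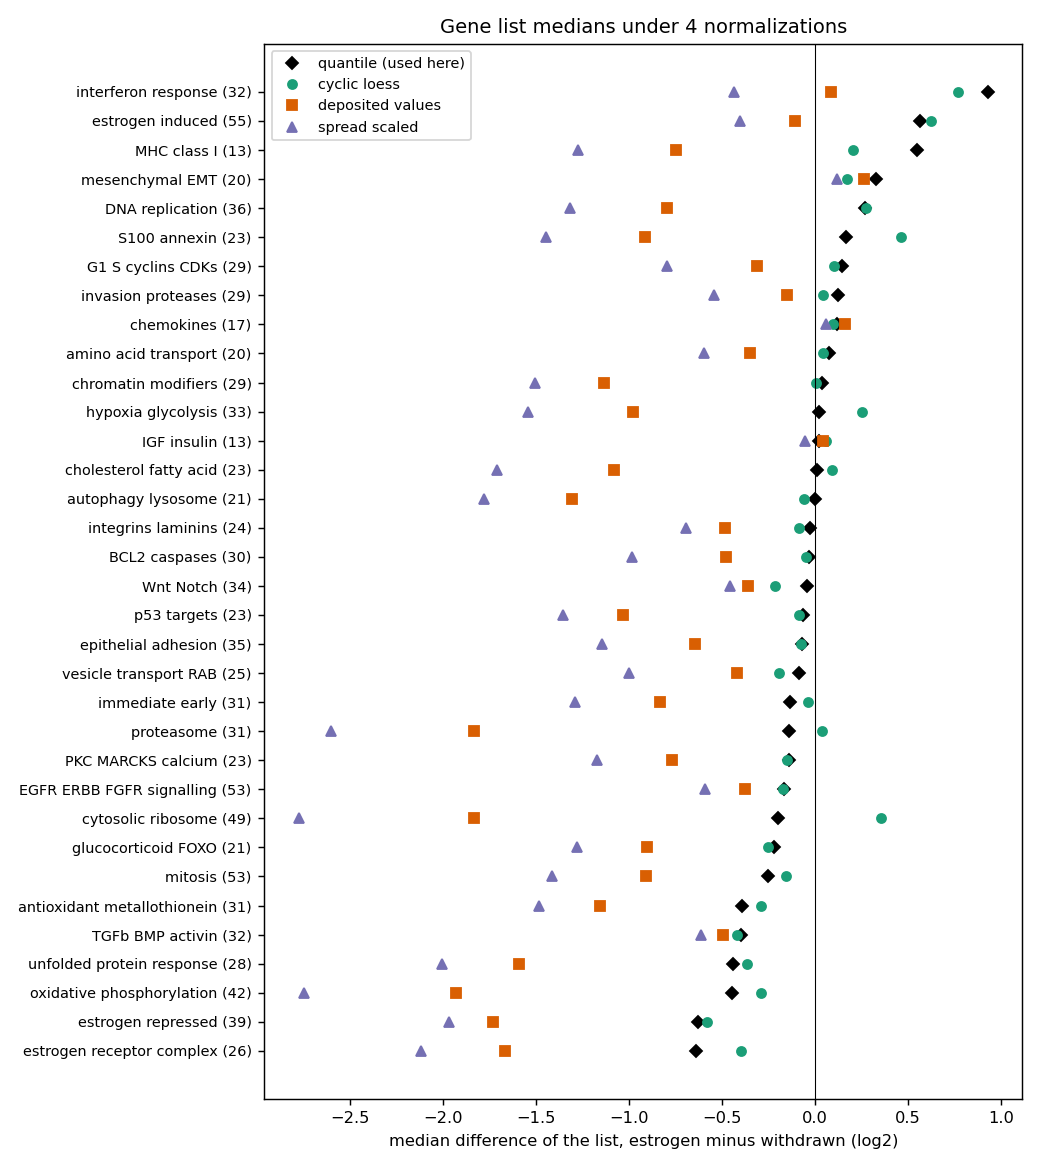
Median estrogen minus withdrawn difference (log2, x) of each of 34 gene lists, with the number of genes tested in parentheses, under 4 normalizations (1 symbol each). The estrogen-repressed and receptor complex lists lie below 0 under all 4, as do many others, such as oxidative phosphorylation, the unfolded protein response and mitosis. The estrogen-induced and interferon lists change sign, and the ribosome list runs from −2.77 to 0.35.

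Among markers of other cell types EGFR, on the basal list, was the 1 gene called. Laser capture takes chosen tumor cells and would leave out most other cells. In such pools of captured cells, fewer cells of a type and less RNA per cell cannot be told apart. Luminal markers (24 tested) had a mean signal of 8.43 and 8.41 with estrogen and 8.68 and 8.75 after withdrawal, and MUC1 was the 1 call. KRT18, a luminal keratin, had 12.80 and 12.69 against 13.15 and 12.12, so its groups overlapped. Basal markers (17 tested) had a mean of 5.57 and 5.54 against 4.59 and 4.07, with EGFR as the 1 call. Of the 17, 9 had arrays apart with estrogen higher and 2 with estrogen lower (31.2% and 26.7% of all genes). Markers of fibroblasts had a mean of 3.59 and 3.84 against 3.46 and 3.34, of endothelium 3.61 and 3.62 against 3.60 and 3.53, and of lymphoid cells 3.30 and 3.54 against 3.06 and 3.10. At an unadjusted p below 0.05 (21.4% of all genes) were 4 of 20 lymphoid, 4 of 12 myeloid and 2 of 13 fibroblast markers tested. So were 1 of 15 endothelial, 1 of 8 adipocyte and 3 of 9 muscle markers, and none of these lists held a call. Myeloid markers had 3.92 and 3.79 against 3.20 and 2.89, with CSF1R, LYZ and PTPRC, all defining, below the filter. All 12 myeloid markers tested had a difference above 0. Arrays were apart with estrogen higher in 7 and with estrogen lower in 0 (31.2% and 26.7% of all genes). S100A8, which granulocytes and also stressed epithelium make, had 11.80 and 11.69 against 9.25 and 6.10 (4.04, adjusted p = 0.0865). Adipocyte markers had 3.67 and 3.54 against 3.31 and 3.41 with ADIPOQ and FABP4 below the filter, and muscle markers 3.70 and 3.82 against 3.40 and 3.63 with ACTA1, MYH1 and MYH2 below it. The nearest to a call were SPARC (1.18, adjusted p = 0.107) and MMP2 (1.14, adjusted p = 0.189) for fibroblasts, VWF (0.59, adjusted p = 0.216) and CDH5 (−1.13, adjusted p = 0.237) for endothelium, and LAPTM5 (0.95, adjusted p = 0.0753) for myeloid cells. For lymphoid cells they were CD7 (1.61, adjusted p = 0.0949) and CD22 (0.81, adjusted p = 0.143), for adipocytes DGAT2 (1.23, adjusted p = 0.175) and LIPE (0.59, adjusted p = 0.309), and for muscle TNNI2 (1.08, adjusted p = 0.117) and CKM (0.90, adjusted p = 0.13). The part of other cells in the results was not tested.

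Set beside the lymph node metastases, the primary tumors differed in response past the threshold in 1 gene of 17167 (0.00583%), with 1094 genes at an unadjusted p below 0.05. That gene was SLC38A2-AS1, which had 0.46 ± 0.35 (SE) in lymph nodes against 6.49 in primary tumors, a difference of responses of 6.03 (adjusted p = 0.038). The call was lost with cyclic loess, with no filter, with the median of its probe sets and without any 1 of 8 of the 10 arrays. Of the 133 genes called higher, 109 had all 6 lymph node arrays below both estrogen-treated primary tumors, and their median lymph node difference was 0.37. The other large calls were alike in this respect, with lymph node differences of 0.20 for EGFR, 0.54 for FGFR1 and 0.62 for JAK3, but the difference of responses was not past the threshold in them. Of the 103 genes called lower, 58 had all 6 lymph node arrays above both estrogen-treated primary tumors, and their median lymph node difference was −0.59. The calls rest on the same estrogen-treated primary arrays, so the 109 and the 58 depend in part on that choice. The same shares over all genes were not computed.

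The estrogen lists were also measured in lymph nodes. The lymph node median was 0.50 for the induced list (0.57 in primary tumors) and −0.80 for the repressed list (−0.63), and 0.02 for all genes. The sign was shared by 45 of 55 induced genes (81.8%) and 36 of 39 repressed genes (92.3%), against 68.0% of all genes tested, with 4 mice giving both sites. INHBB differed by −3.48 in lymph nodes, CSTA by −2.56, MT1F by −2.43, MUC1 by −2.09, CCNG2 by −1.80 and GREB1 by 2.87. The primary response minus the lymph node response was 0.05 ± 0.76 (SE) for INHBB, −0.17 ± 0.52 for CSTA, 0.37 ± 0.42 for MUC1, −1.16 ± 0.76 for CCNG2 and 1.15 ± 0.97 for GREB1, none past the threshold. S100A7 differed by 3.56 in lymph nodes and 5.27 in primary tumors. MYC differed by 2.06 in lymph nodes, and IGF1R by 1.17. ESR1 differed by −2.94 in lymph nodes, where single arrays ran from 5.71 to 11.43.

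**Figure D5:**
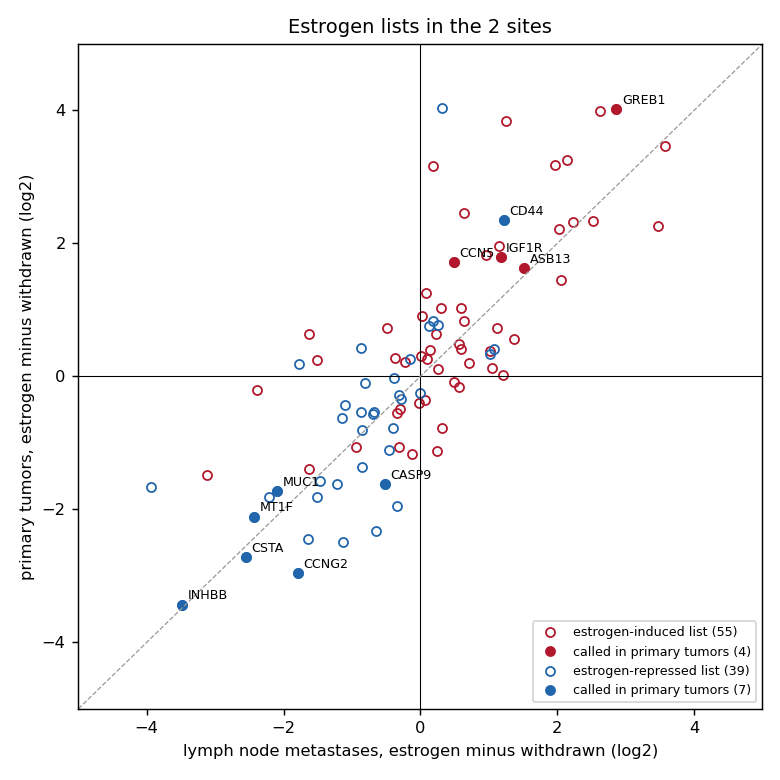
Estrogen minus withdrawn difference (log2) of the 55 estrogen-induced (red) and 39 estrogen-repressed (blue) genes in lymph node metastases (x) and primary tumors (y), filled where called in primary tumors, with a dashed line of equal difference. INHBB, CSTA, MT1F and MUC1 lie near the dashed line at lower left and GREB1 at upper right, and CD44 is the 1 filled repressed gene above 0.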

How the data were processed

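The authors deposited log2 signals of 61359 probe sets on each of 10 arrays. Partek software and RMA, which subtracts background, normalizes and sums up probes, are named in the submitters' processing notes; versions and settings are not given in the sources used here. Per the labels' protocols, RNA of laser-captured cells was amplified by PCR, which adds noise and can favor 3′ ends. Arrays give no counts, and their number limits the precision.

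Values were quantile-normalized across the 10 arrays. From the platform annotation, 44532 probe sets had exactly 1 gene symbol, and for each of 19556 genes the brightest of them on average was used. Genes with that mean below the 25th percentile over probe sets (2.31) were left out, 2389 in all. The tests were those of limma 3.58.1 under R 4.3.3 (lmFit, contrasts.fit, eBayes; 6 residual and 2.92 prior degrees of freedom), with 1 mean per group and mouse as a random block (duplicateCorrelation, within-mouse correlation −0.0565), because 4 mice gave both sites. Deviations from group means of the 2 arrays of a mouse correlated at 0.175 (mouse 10), 0.0834 (mouse 19), −0.199 (mouse 11) and −0.2 (mouse 14). P-values of the fit were adjusted over the 17167 genes by Benjamini and Hochberg's method, and an adjusted p below 0.05 was a call. The fit was tested on simulated data.

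Alternatives were the deposited values, cyclic loess, scaling, no filter or a stricter one, no block, a variance trend, the median of a gene's probe sets, the hybridization controls as covariate, the 4 primary arrays alone, and each array left out. Genes were named by a rule: called genes whose arrays did not overlap, the 15 most positive and 15 most negative; up to 10 per direction with at least 3 probe sets, all of 1 sign; up to 5 called members of each of 42 lists (1171 genes), or the 2 with the greatest absolute t; genes called in the difference of responses; and 12 genes of interest. The comparison and the lists were chosen with earlier results of these data known, and lists are described by counts and medians only.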

Additional observations from a re-analysis of the deposited data

Results flagged for a closer look

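SLC38A2-AS1 stood out because its response to estrogen differed between the sites by the test of the difference itself. The primary tumor response exceeded the lymph node response by 6.03 log2 units (SE 0.56, adjusted p = 0.038 from limma), and both estrogen-treated primary arrays (10.87 and 10.49) lay above all other arrays (3.37 to 4.86). The difference of responses was 2.96 to 6.51 over all alternatives, but its call was lost with cyclic loess (4.73), with no filter (6.02), with the median of its probe sets (2.96) and in 8 of the 10 fits that left out 1 array. It was kept without the estrogen-treated primary array of mouse 14 (6.24) and without mouse 11 of the lymph node group with estrogen (6.36). Its other probe set differed by 0.05 in primary tumors. Groups held 2 or 3 arrays, too few to test any single array as an outlier.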

How the results depend on the processing

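The count of genes called in primary tumors, 236, became 1342 on deposited values, 54 with cyclic loess, 3510 after scaling, 67 with the median of a gene's probe sets, 5249 with the hybridization controls as covariate and 1422 with the 4 primary arrays alone. Of the 236, 208 were called in the same direction on deposited values, 52 with cyclic loess and 224 with the primary arrays alone. Leaving out 1 array gave 2 to 1921 calls. It stayed within 1.5 times with no filter (220), the 50th percentile filter (285) and the variance trend (315). The count for the difference of responses, 1, became 2 on deposited values, 0 with cyclic loess (858 at an unadjusted p below 0.05), 1029 after scaling, 0 with no filter (1257 unadjusted), 8 with the 50th percentile filter, 14 with the variance trend, 2619 with the covariate and 0 to 38 without 1 array (0 in 8 of 10 such fits). The 1 call made with the median of probe sets was another gene.

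Without mouse as a block the primary count was 251 and the difference of responses had 9 calls; the pairing comes from the animal, and 1 named gene lost its call without the block.

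With the median of all probe sets the sign of 8 called genes turned, to −0.20 for FGFR1, −0.12 for POLR2J4, −1.11 for RBPJ, 0.47 for BACH1, 0.11 for CASP9, 0.74 for MT1F, 0.091 for ATF3 and 0.047 for EPAS1. On deposited values AKT2 (−0.10), ATP5MC1 (−0.41) and DHCR7 (−0.17) turned, and after scaling these 3 (−0.75, −1.16 and −0.78) and RBPJ (−0.0078). The causes were not tested beyond what each alternative changes by construction.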
